A study of Mus musculus with 50 samples.

Results

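The genes described here are 9 of the 52636 genes listed in a count table of mouse thyroid RNA: the endocytic receptor gene Lrp2, the lysosomal protease genes Ctsb, Ctsl, Ctsk, Ctss, Ctsd and Lgmn, and the lysosomal membrane genes Lamp1 and Lamp2. They were chosen by name for their place in thyroglobulin uptake and breakdown, with earlier results of these data known, and each was found once by its Ensembl ID. All 9 passed the filter on low counts in every comparison. The data comprise 50 thyroid libraries in 10 groups of 5, from male C57BL/6 mice of 10 to 14 weeks per the treatment protocol and 10 to 12 weeks per the series text. Every mouse was given antibody once by the intraperitoneal route, the controls included. The control antibody, against ragweed (RW), was given at 40 mg/kg. The label aJ1aJ2 stands for antibodies to the Notch ligands Jag1 and Jag2, dosed at 20 mg/kg each. Receptor antibodies were combined as aN1aN2 (5 mg/kg to Notch1 with 10 mg/kg to Notch2) or as aN1aN2aN3 (the same with 20 mg/kg to Notch3). RW, aJ1aJ2 and aN1aN2 were each sampled at 15 hours and at 5 days. The 7-day libraries fall into a first set of RW and aJ1aJ2 and a second set of aJ1aJ2 and aN1aN2aN3. RW libraries of that second set were not analysed here, and aN1aN2aN3 is therefore compared with aJ1aJ2 alone. The series text also describes daily injections of the thyroid hormones T4 and T3, but the labels do not tell whether any of the mice analysed had them. The labels number the libraries of a group as separate samples without saying whether each came from 1 mouse, so p-values measure the spread between these samples only.

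Thyroid follicular cells (thyrocytes) secrete thyroglobulin, the protein made from Tg, into the follicle lumen as colloid, where hormone is formed on it and stored. To release hormone, the cells take thyroglobulin back up and carry it to endosomes and lysosomes, where cathepsins cut it until T4 and T3 are freed. Megalin, the product of Lrp2, is a large endocytic receptor on the apical surface of thyrocytes that binds thyroglobulin, and part of what it takes up crosses the cell instead of reaching lysosomes. Cathepsins B, L, K and S are cysteine proteases, cathepsin D is an aspartic protease, and legumain (Lgmn) cuts after asparagine and activates other lysosomal proteases. LAMP1 and LAMP2 are heavily glycosylated proteins of the lysosomal membrane, and LAMP2 also takes part in autophagy. Several of these genes are also strongly expressed by other cells: cathepsin K by osteoclasts and fibroblasts, and cathepsin S by macrophages, dendritic cells and B cells, where it processes the invariant chain of MHC class II.

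Many lysosomal genes carry the letters CACGTG near their start, the core of the element bound by the transcription factor TFEB and its relatives. The 250 bases upstream of the annotated start were taken from RefSeq (GRCm38.p6) for 8 members, Ctsb having no entry in the table. Ctsd (chr7:142387828-142388077, minus strand) and Lamp1 (chr8:13158911-13159160, plus strand) are printed because their levels followed each other most closely among the members and because these windows held the most matches, with every CACGTG in capitals.
Ctsd: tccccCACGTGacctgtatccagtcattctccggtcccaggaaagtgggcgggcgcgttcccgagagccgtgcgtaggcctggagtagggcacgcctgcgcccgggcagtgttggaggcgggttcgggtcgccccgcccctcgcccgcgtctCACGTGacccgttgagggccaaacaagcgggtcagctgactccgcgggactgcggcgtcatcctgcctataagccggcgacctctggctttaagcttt
Lamp1: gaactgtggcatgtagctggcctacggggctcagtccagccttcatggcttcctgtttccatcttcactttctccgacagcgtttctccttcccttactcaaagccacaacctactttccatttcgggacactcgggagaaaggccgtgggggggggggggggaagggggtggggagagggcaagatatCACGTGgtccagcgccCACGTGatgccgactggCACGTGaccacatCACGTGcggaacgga
The Ctsd window held 2 matches, 245 and 98 bases before the start, of which the nearer lay within the longer palindrome TCACGTGA. In Lamp1 there were 4, at 61, 45, 28 and 15 bases before the start. Ctsl had 1 match at 236 bases, and 1 of the 2 annotated starts of Lgmn had 1 at 49 bases. The windows of Lrp2, Ctsk, Ctss and Lamp2 did not hold these letters. CACGTG reads the same on both strands, and it occurred in 1978 of 32851 windows of this length in the table (6.02%), with TCACGTGA in 258 (0.785%). A match is a description of the letters and not a measured binding site.

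Across the series the total counts ran from 15.3 to 52.8 M per library. Tg, which defines thyrocytes, was present in every library and took from 0.450 to 42.4% of the counts. It was under 7% of counts in the second 7-day set (1.15 to 2.82% in aJ1aJ2, 3.73 to 6.5% in aN1aN2aN3), and in replicate 3 of RW at 5 days it was at its lowest, with a Tg level of 7966 CPM against 372463 to 491501 CPM in the other 4. Skeletal muscle genes took between 0.0404 and 11.3% of counts. Levels below are CPM (counts scaled to TMM library sizes), and differences are log2 fold changes with standard errors (SE) from edgeR's quasi-likelihood test, called at a Benjamini-Hochberg adjusted p under 0.05 over all genes tested. In bulk tissue, fewer cells of a type and less RNA per cell cannot be told apart. Some exons overlap those of other genes (Ctsb with Fdft1, Ctsl with Gm47123 and the pseudogene Gm49230, Ctsd with Gm49369, Lamp1 with Grtp1), and the use of strand in counting is not given in the sources used here, so part of these 4 genes' counts could belong to the partner.

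Compared by the deposited FPKM (counts scaled to gene length and library size), the 9 genes fell into an upper and a lower tier. This order depends on the gene length used and is not an order of transcript abundance. Over the 50 libraries Lrp2 had a median of 147 CPM and 0.843 FPKM, against 56.7 CPM and 1.24 FPKM for Lgmn. Ctsb, Ctsd, Ctsl and Lamp1 were each above Lamp2 in 50 of 50 libraries, and Lamp2 was above Ctsk, Ctss, Lgmn and Lrp2 in 50 of 50. In the RW libraries at 15 hours the median FPKM was 59.8 for Ctsd, 59.0 for Ctsl, 39.5 for Lamp1 and 39.1 for Ctsb. It was 7.86 for Lamp2, and below that 1.37 for Lgmn, 1.07 for Ctss, 0.846 for Lrp2 and 0.596 for Ctsk. Some neighbours in this order were not separated: Lamp1 was above Ctsb in 3 of 5 of these libraries, Lgmn above Ctss in 3 of 5, and Lrp2 above Ctsk in 3 of 5. Ctsd was above Ctsl in 5 of 5 although their medians were close.

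**Figure D1:**
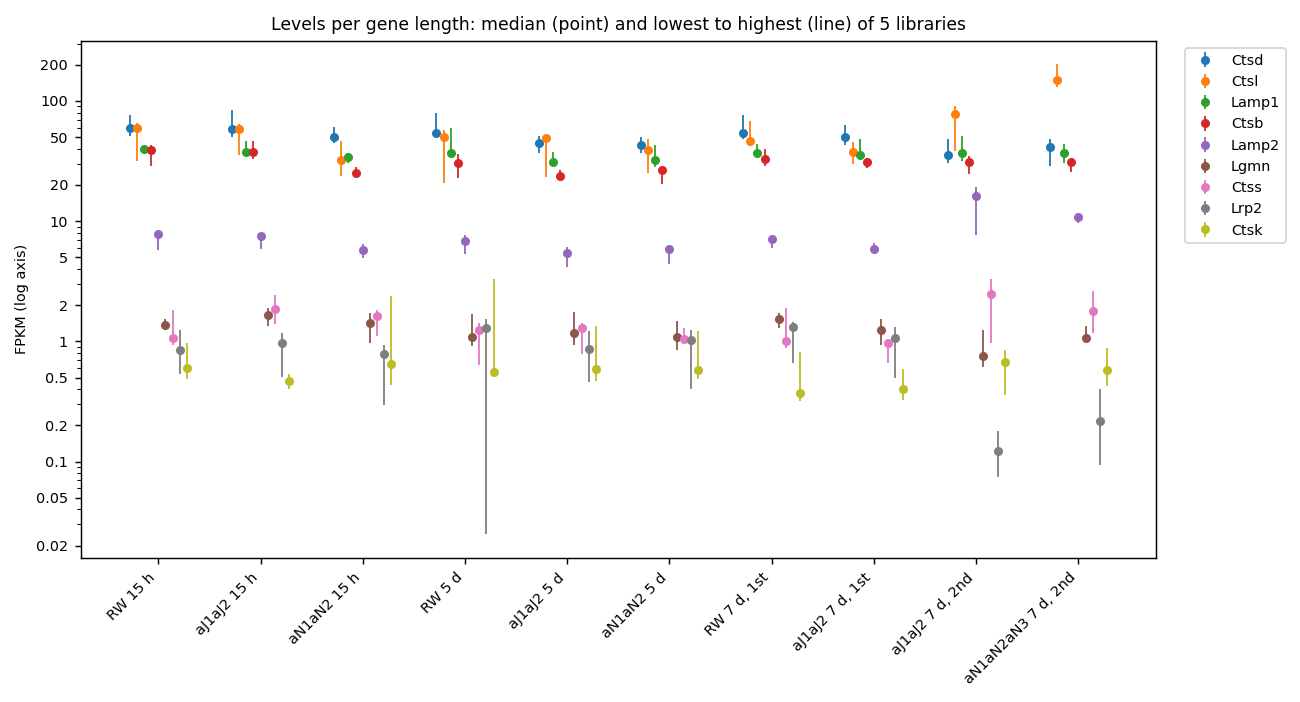
Median FPKM of the 9 genes in each of the 10 groups, with lines from the lowest to the highest of 5 libraries, on a log axis. Ctsb, Ctsd, Ctsl and Lamp1 form the upper tier in all groups, and Lrp2 has the lowest median in both groups of the second 7-day set.

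The gene at the top was not the same in all groups. Ctsd was the highest member in 36 libraries and Ctsl in 13, among them 5 of 5 aN1aN2aN3 libraries, 3 of 5 aJ1aJ2 libraries of the second 7-day set and 3 of 5 aJ1aJ2 libraries at 5 days. In aN1aN2aN3 the median FPKM of Ctsl was 150 against 41.6 for Ctsd. At the other end, Lrp2 had the lowest median of the 9 in both groups of the second 7-day set, with 0.122 FPKM in aJ1aJ2 and 0.218 in aN1aN2aN3, and it was below Ctsk in 5 of 5 libraries of each. Ctsk held the last place in the other 8 groups.

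**Figure D2:**
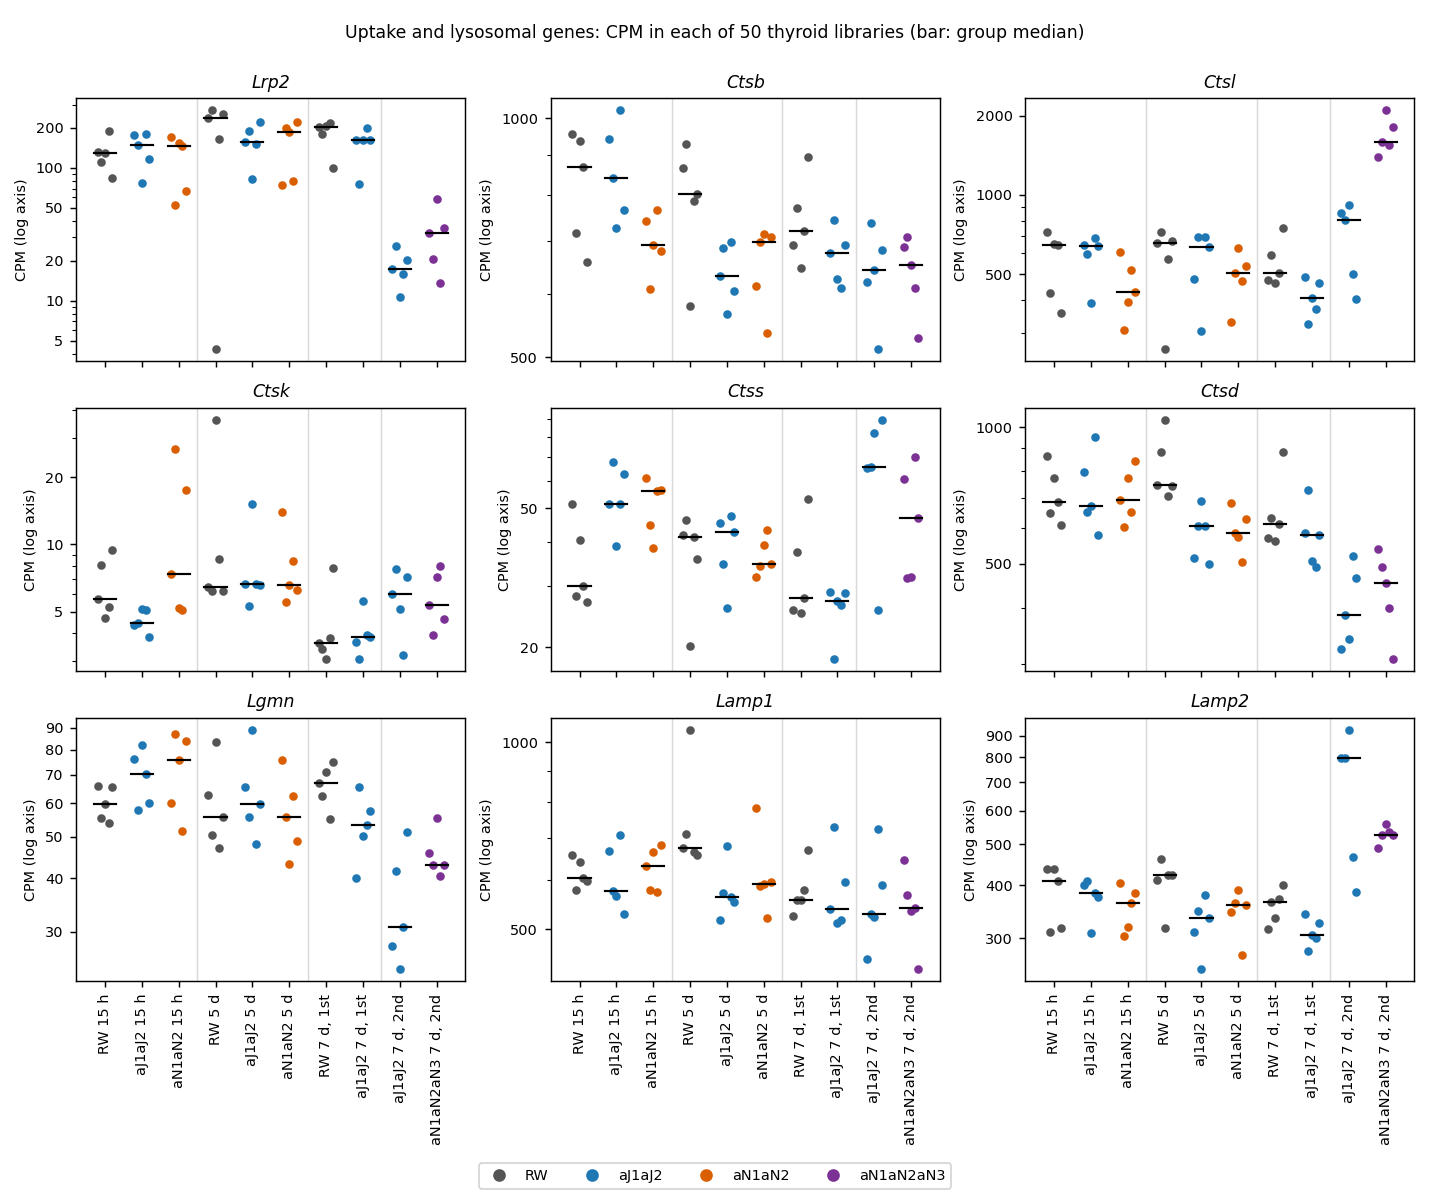
Levels of the 9 genes in CPM in each of 50 libraries, by group, on a log axis with a bar at each group's median. Ctsl is highest in aN1aN2aN3 (1390.4 to 2094 CPM) and Lrp2 is lowest in the second 7-day set, apart from 1 RW library at 5 days at 4.32 CPM.

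Lrp2, the receptor gene, had no called difference under any antibody, and its libraries spread widely. At 15 hours its levels were 131, 111, 130.2, 190.3 and 84.1 CPM in RW (129 ± 39.0, SD, n = 5), 177, 148, 77.5, 179 and 116 CPM in aJ1aJ2, and 172, 52.8, 154, 146 and 67.2 CPM in aN1aN2. The 3 groups overlapped. Relative to RW the log2 difference of Lrp2 was 0.11 for aJ1aJ2 (95% interval -0.61 to 0.82) and -0.13 for aN1aN2 (-0.85 to 0.59). At 5 days Lrp2 was at 238, 271, 4.32, 165 and 254 CPM in RW, 157, 190.4, 82.7, 153 and 222 CPM in aJ1aJ2, and 73.9, 199, 188, 79.5 and 223 CPM in aN1aN2. The low RW library was the one with little Tg. The log2 differences at 5 days had wide intervals, -1.66 to 1.22 for aJ1aJ2 and -1.74 to 1.14 for aN1aN2, so neither a halving nor a doubling lay outside them. In the first 7-day set the levels of Lrp2 were 202, 179, 206, 218 and 101 CPM in RW and 161, 75.2, 161, 199 and 162 CPM in aJ1aJ2, with a log2 difference of -0.26 (SE 0.27, interval -0.84 to 0.33).

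In the second 7-day set Lrp2 was low in both groups. It was measured at 17.5, 26, 10.6, 15.9 and 20.4 CPM in aJ1aJ2 (18.1 ± 5.67, SD, n = 5) and at 32.3, 20.5, 58.4, 13.6 and 35.4 CPM in aN1aN2aN3 (32.0 ± 17.2). The 2 groups overlapped, and the log2 difference of 0.79 (SE 0.36) did not pass the threshold (edgeR adjusted p = 0.136). All 5 aJ1aJ2 libraries of the second set lay below all 5 of the first, which ran from 75.2 to 199 CPM. Lamp2, by contrast, was higher in every aJ1aJ2 library of the second set (385 to 928 CPM) than in any of the first (281 to 343 CPM). Between these sets, which had the same antibody and time, 41.0% of 16133 genes did not overlap, so 2 of 9 members is below that background, and no p-value is given, since nothing in the labels separates the set from how its mice and libraries were handled. Tg was also low in the second set, at 10582 to 23310.4 CPM in aJ1aJ2 against 108677 to 392117 CPM in the first set. The summed thyrocyte markers other than Tg were at 1177 to 2679 against 1397 to 5477 CPM, with medians of 2165 against 3915 CPM. The sets overlapped only through replicate 2 of the first, at 1397 CPM, the rest of that group being at 3674 CPM or more. C cell markers overlapped as well, at 6881 to 17772 against 3655 to 15015 CPM. Endothelial markers were lower without overlap, at 245 to 310 against 576 to 787 CPM. The part of tissue composition in the level of Lrp2 was not tested.

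At 15 hours no member passed the test under either antibody. For aJ1aJ2 against RW edgeR called 0 of 9, beside 0.573% of all 18513 genes. At an unadjusted p under 0.05 there was 1 member, beside 6.59% of genes. The 3 other tools run (DESeq2, limma on FPKM, and limma with library quality weights) called 0 members each and 1.43, 0.519 and 0.951% of genes. For aN1aN2 against RW edgeR called 0 of 9 (2 unadjusted), beside 1.68% of all genes (14.4% unadjusted). DESeq2 and quality weights called 0 members and 4.55 and 2.75% of genes, while limma on FPKM called 1 member (Ctsb) and 12.3% of genes. The single FPKM call is thus near that tool's background. The median log2 difference of the 9 was 0.05 for aJ1aJ2 and -0.01 for aN1aN2, with medians over all genes of -0.03 and 0.01. The 2 comparisons share their RW libraries. The aN1aN2 libraries differ from RW and aJ1aJ2 at this time in FPKM library scaling and in the run of their title IDs. Whether they were handled apart is not stated. In every aN1aN2 comparison at 15 hours, such handling and the antibody cannot be told apart. No member had groups without overlap at this time, which was the case for 1.72% of all genes under aJ1aJ2 and 5.21% under aN1aN2.

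Ctss, the cathepsin of antigen-presenting cells, had the smallest unadjusted p among the 9 in both comparisons with RW at 15 hours. Its levels were 51.3, 28.0, 40.5, 29.96 and 27.0 CPM in RW (35.4 ± 10.4, SD, n = 5), 51.5, 67.9, 38.9, 51.6 and 62.7 CPM in aJ1aJ2 (54.5 ± 11.2) and 60.9, 44.7, 38.5, 55.9 and 56.4 CPM in aN1aN2 (51.3 ± 9.32). In each treated group 5 of 5 libraries were above the RW mean, but the ranges overlapped because RW replicate 1 was as high as treated libraries. The log2 difference was 0.62 for aJ1aJ2 (SE 0.20, interval 0.19 to 1.05, edgeR adjusted p = 0.453) and 0.53 for aN1aN2 (SE 0.20, interval 0.10 to 0.96, adjusted p = 0.227). Of the 12 macrophage markers, 1 passed in each of these comparisons: Fcgr1, a macrophage Fc receptor, at 1.27 to 3.88 CPM in RW, 5.30 to 8.78 CPM in aJ1aJ2 and 5.62 to 9.10 CPM in aN1aN2. The log2 change of Fcgr1 was 1.42 (edgeR adjusted p = 0.0275) and 1.59 (adjusted p = 0.0075). The other 11 macrophage markers did not pass. The summed level of all 12 was 288 to 4401 CPM in RW, 433 to 488 CPM in aJ1aJ2 and 441 to 11635 CPM in aN1aN2, where Lyz2 made up 11254 CPM of the highest sum, and that of dendritic and B cell markers 548 to 1160.0, 373 to 1073 and 452 to 892 CPM. Within these lists no group had a gene at 0 in all 5 libraries, and the part of these cells in the Ctss values was not tested.

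Ctsk was the member whose 2 antibody groups stood farthest apart at 15 hours. It was at 5.68, 8.08, 4.68, 5.26 and 9.48 CPM in RW, 4.36, 4.46, 5.13, 5.09 and 3.83 CPM in aJ1aJ2 (4.57 ± 0.542, SD, n = 5) and 7.39, 26.7, 5.21, 5.10 and 17.5 CPM in aN1aN2 (12.4 ± 9.50). The aN1aN2 mean rests on replicates 2 and 5, and the other 3 libraries lay within the RW range. The log2 difference of aN1aN2 from aJ1aJ2 was 1.44 (SE 0.42, interval 0.54 to 2.33), which edgeR did not call (adjusted p = 0.195) and DESeq2 did (adjusted p = 0.0323). Replicates 2 and 5 also had the highest summed fibroblast markers of their group, 2575 and 2165 CPM against 917 to 1228 CPM. Their summed macrophage markers were 3949 and 11635 CPM against 441 to 588 CPM. Most of that came from 1 gene of the list, the macrophage and neutrophil gene Lyz2, at 3598 and 11254 CPM against 132 to 276 CPM. Summed osteoclast markers were at 64.3 CPM in replicate 2 and 33.1 CPM in replicate 5, against 28.9 to 38.6 CPM in the other 3. The part of these cells in the Ctsk values was not tested. For aN1aN2 against aJ1aJ2 as a whole, edgeR called 0 of 9 members (1 unadjusted), beside 0.13% of all genes, while DESeq2 called 1 (Ctsk) and 2.72% of genes, limma on FPKM 1 (Ctsb) and 10.8%, and quality weights 0 and 0.308%. Groups without overlap were found for 0 of 9 members and 1.99% of genes.

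EdgeR called none of the other 7 members against RW at 15 hours, and some of their intervals were wide. Lamp1, one of the most even genes of the set, had group means of 616 ± 33.0 CPM in RW, 609 ± 75.3 in aJ1aJ2 and 627 ± 49.3 in aN1aN2 (SD, n = 5 each), with log2 differences from RW of -0.02 and 0.02. Those of Ctsd, whose protein is the main aspartic protease of lysosomes, were 0.02 and -0.01. For Ctsb they were 0.05 and -0.25, for Ctsl 0.08 and -0.31, for Lgmn 0.21 and 0.25, and for Lamp2 -0.02 and -0.11. The interval of Lamp1 under aJ1aJ2 ran from -0.28 to 0.25, the narrowest of the members, and those of Ctsl reached -0.43 to 0.59 under aJ1aJ2 and -0.82 to 0.20 under aN1aN2.

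At 5 days most members lay lower in both antibody groups than in RW, without passing the test. The log2 difference was negative for 7 of 9 under aJ1aJ2 and for 9 of 9 under aN1aN2, with medians of -0.32 and -0.29, beside medians over all genes of -0.06 and -0.07. The 2 comparisons use the same RW libraries, so their like signs are not independent. For aJ1aJ2 edgeR called 0 of 9 (1 unadjusted), beside 0.179% of 18434 genes (11.8% unadjusted). DESeq2 called 1 member and 2.83% of genes, limma on FPKM 0 and 0.244%, and quality weights 4 and 18.9%. For aN1aN2 edgeR called 0 of 9 (1 unadjusted), beside 0.0% of all genes (0 of 18434, with 1848 at an unadjusted p under 0.05). DESeq2 called 1 member and 402 genes (2.18%), limma on FPKM 0 and 0 (0.0%), and quality weights 3 and 1523 (8.26%).

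Ctsd was the member without overlap between RW and both treated groups. Its levels at 5 days were 746, 884, 1037, 704 and 742 CPM in RW (823 ± 138, SD, n = 5), 516, 607, 689, 605 and 499 CPM in aJ1aJ2 (583 ± 77.1) and 681, 583, 573, 504 and 629 CPM in aN1aN2 (594 ± 65.9). All 5 libraries of each treated group were below the lowest RW library, and the treated groups overlapped each other. The share of all genes without overlap was 3.74% for aJ1aJ2 and 2.1% for aN1aN2. The log2 difference of Ctsd was -0.51 for aJ1aJ2 (SE 0.19, interval -0.92 to -0.09, edgeR adjusted p = 0.307) and -0.48 for aN1aN2 (SE 0.19, interval -0.89 to -0.07, adjusted p = 0.387). Other fits did call it, with the shares of all genes given above: DESeq2 gave -0.52 (adjusted p = 0.0229) and -0.49 (adjusted p = 0.0435), and limma with library quality weights -0.47 (adjusted p = 0.0024) and -0.39 (adjusted p = 0.0195). With a muscle covariate edgeR also called Ctsd alone of the 9 in each comparison, beside 5.71 and 4.22% of all genes. The highest RW value came from replicate 3, the library with little Tg and with a summed muscle level of 199828 CPM. Without it the differences were -0.40 and -0.38 (adjusted p = 0.222 and 0.250), and the remaining RW libraries, from 704 CPM, still lay above every treated library.

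The other genes differed from RW by less than Ctsd or with wider spread. Lamp1 was at 677, 712, 1045, 666 and 659 CPM in RW, 518, 571, 680.5, 563 and 553 CPM in aJ1aJ2, and 783, 587, 592, 521 and 596 CPM in aN1aN2. RW replicate 3 was again the highest, and 1 library of each treated group reached into the RW range. Log2 differences were -0.39 and -0.30 for Lamp1, -0.32 and -0.29 for Ctsb, and -0.33 and -0.24 for Lamp2 under aJ1aJ2 and aN1aN2. With library quality weights limma called Ctsb and Lamp2 in both comparisons and Lamp1 under aJ1aJ2. Ctsl had differences of -0.06 and -0.24, Ctss of 0.07 and -0.03, and Lgmn of 0.08 and -0.08. The differences of Ctsk, -0.65 and -0.65, rest on RW replicate 3 at 35.9 CPM, the other 4 RW libraries being at 6.16 to 8.64 CPM. That library's summed fibroblast markers were at 3104 CPM and its osteoclast markers at 44.7 CPM, against 15.6 to 40.1 CPM in the other 4, and their part in its Ctsk level was not tested.

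The 2 treated groups lay close together at 5 days. For aN1aN2 against aJ1aJ2 the members' log2 differences ran from -0.18 to 0.09, and edgeR called 0 of 9 (0 unadjusted), beside 0.0% of all genes (0 of 18434, 778 unadjusted). DESeq2, limma on FPKM and quality weights called 0 members, and 45, 0 and 69 genes (0.244, 0.0 and 0.374%). No member lacked overlap, nor did all but 0.613% of genes. The interval for Ctsd ran from -0.39 to 0.43, and for Lrp2 from -1.52 to 1.36.

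**Figure D3:**
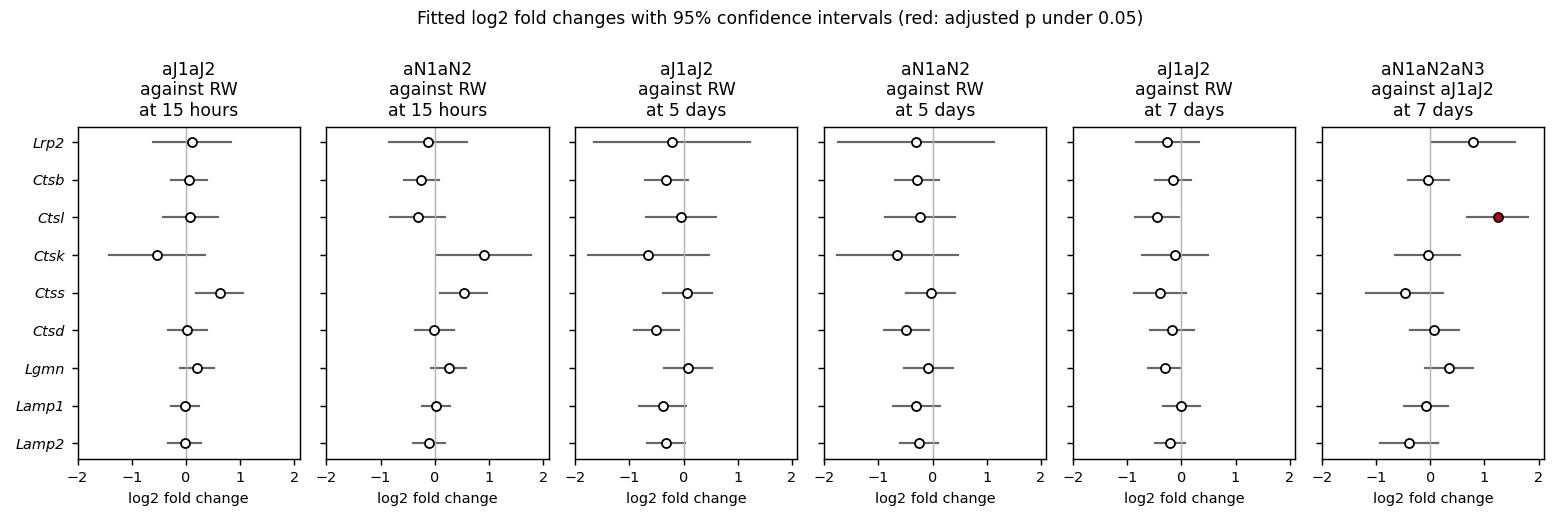
Log2 fold changes of the 9 genes with 95% intervals in 6 comparisons (aJ1aJ2 and aN1aN2 against RW at 15 hours and 5 days, aJ1aJ2 against RW at 7 days, aN1aN2aN3 against aJ1aJ2 at 7 days), in red where the edgeR adjusted p was under 0.05. The red point is Ctsl in the last comparison, and most points at 5 days lie left of 0.

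Whether an antibody's effect differed between 15 hours and 5 days was tested as a difference of differences over the 30 libraries. It was negative for 9 of 9 members under aJ1aJ2 and 8 of 9 under aN1aN2, with medians of -0.37 and -0.33 beside -0.07 and -0.07 over all genes. Both use the same RW libraries of 15 hours and 5 days, among them RW replicate 3 at 5 days, so their like signs are not independent. The limit given above for the aN1aN2 libraries at 15 hours applies here too. EdgeR called 0 of 9 in both (1 and 2 unadjusted), beside 0.636 and 1.8% of 19337 genes (11.2 and 14.8% unadjusted). DESeq2 called 0 members in both (2.51 and 4.59% of genes), as did limma on FPKM (1.09 and 3.92%), and quality weights called 4 under aJ1aJ2 (16.6% of genes) and 0 under aN1aN2 (7.55%). With a muscle covariate edgeR called 1 member (Ctsk) and 9.34% of genes under aN1aN2. The largest in size was Ctsk under aN1aN2, at -1.57 (SE 0.68, edgeR adjusted p = 0.269), which was -0.72 without RW replicate 3 at 5 days. For Ctsd the differences were -0.55 and -0.48, and for Ctss -0.58 and -0.57. Fcgr1 passed in both, with log2 differences of -2.05 (edgeR adjusted p = 0.0329) and -2.10 (adjusted p = 0.0116). Mertk, a macrophage receptor for dying cells, passed under aJ1aJ2 at 1.28 (adjusted p = 0.0365).

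In the first 7-day set, aJ1aJ2 against RW, no member passed. EdgeR called 0 of 9 (1 unadjusted), beside 0.0% of all genes (0 of 16954, 1968 unadjusted). DESeq2, limma on FPKM and quality weights called 0 members, and 413, 0 and 595 genes (2.44, 0.0 and 3.51%). The log2 difference was negative for 8 of 9 members with a median of -0.21, beside 0.01 over all genes. Ctsl, an endopeptidase gene, was at 477, 591, 462, 504 and 751 CPM in RW and at 490.2, 323, 407, 369 and 463 CPM in aJ1aJ2, and the groups overlapped through 2 treated libraries. Its log2 difference was -0.44 (SE 0.18, interval -0.85 to -0.04, edgeR adjusted p = 0.396). Ctss had -0.39, Lgmn -0.31, Lamp2 -0.21, Ctsd -0.18, Ctsb -0.16, Ctsk -0.11 and Lamp1 0.00. None of the 9 lacked overlap, against 3.59% of all genes. The highest RW library for Ctsb, Ctsd, Ctsk, Ctsl, Ctss, Lgmn, Lamp1 and Lamp2 was replicate 5, which was also the lowest for Lrp2 and Tg.

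In the second 7-day set Ctsl was higher under aN1aN2aN3 than under aJ1aJ2. Its levels were 851, 802, 919, 503 and 405 CPM in aJ1aJ2 (696 ± 227, SD, n = 5) and 1390.4, 1589.6, 2094, 1554 and 1813 CPM in aN1aN2aN3 (1688 ± 272). All 5 aN1aN2aN3 libraries were above the highest aJ1aJ2 library, and above every library of the other 8 groups, which reached 751 CPM. The aJ1aJ2 libraries at 851, 802 and 919 CPM were also above those 8 groups, so a level above them was not particular to aN1aN2aN3. The log2 change was 1.24 (SE 0.26, interval 0.68 to 1.81, edgeR adjusted p = 0.0081). It was called in 19 of 19 alternative fits, between 0.98 and 1.36. EdgeR called 1 of 9 members (2 unadjusted), beside 19.6% of 18450 genes (35.6% unadjusted), and 1 of 9 lacked overlap, beside 15.0% of genes. Both shares are below the background. DESeq2 and limma on FPKM called the same member and 26.4 and 19.0% of genes, and quality weights called 4 members and 44.7% of genes. The change of Ctsl is set against aJ1aJ2, which in the first set was at 323 to 490.2 CPM.

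The other proteases did not pass the test in this comparison. Ctsb had a log2 difference of -0.04 (interval -0.41 to 0.34), Ctsd 0.08 (-0.38 to 0.53) and Ctsk -0.04 (-0.64 to 0.55). Ctss had -0.47 (SE 0.33, edgeR adjusted p = 0.322), and its libraries spread from 25.5 to 89.3 CPM in aJ1aJ2 and from 31.5 to 70.3 CPM in aN1aN2aN3. Lgmn was at 27.7, 41.5, 24.5, 30.7 and 51.3 CPM in aJ1aJ2 and at 45.9, 43.0, 55.5, 40.5 and 42.9 CPM in aN1aN2aN3, with a log2 difference of 0.34 (SE 0.20, adjusted p = 0.248). Lamp1 had -0.08.

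Lamp2 was at 798, 798, 928, 466 and 385 CPM in aJ1aJ2 (675 ± 236, SD, n = 5) and at 490.3, 526, 559, 535 and 525 CPM in aN1aN2aN3 (527 ± 24.7). In aJ1aJ2, 3 libraries lay above all of aN1aN2aN3 and replicates 4 and 5 below, and the same 2 libraries were the lowest for Ctsl. The log2 difference of Lamp2 was -0.39 (SE 0.25, edgeR adjusted p = 0.275). Without replicates 4 and 5 it was -0.67 (adjusted p = 0.0017), and with library quality weights -0.62 (adjusted p = 0.0034). Lgmn was then called as well, at 0.55 (adjusted p = 0.0342) and 0.52 (adjusted p = 0.0211), and Ctsl stayed called at 0.98 (adjusted p = 0.0014) without them and with the weights (adjusted p = 0.000418). These calls are read against the share of all genes, which was 35.5% without the 2 libraries and 44.7% with the weights, so 3 and 4 of 9 members is near the background. Replicates 4 and 5 had summed muscle markers of 117491 and 34750 CPM, against 286 to 5333 CPM in the other 3, and leaving them out was chosen after their values were seen.

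Levels of cell type markers also differed between the 2 groups. Summed adipose markers were at 3633 to 4457 CPM in aJ1aJ2 and 334 to 1564 CPM in aN1aN2aN3, and 4 of 7 passed the test, all lower in aN1aN2aN3 (Adipoq, Fabp4, Cfd, Lep). Fibroblast markers were at 933 to 2443 and 425 to 1093 CPM, with 3 of 7 lower (Col3a1, Dpt, Lum). Macrophage markers ranged from 336 to 682 and from 273 to 554 CPM, with 2 of 12 higher (Mertk, Cd14) and 3 lower (Mrc1, Fcgr1, Adgre1). Dendritic and B cell markers ranged from 287 to 1026 and from 285 to 848 CPM, with 2 of 6 tested lower (Xcr1, Ms4a1), and endothelial markers had 2 of 5 higher (Pecam1, Cdh5) and 2 lower (Kdr, Emcn), at summed levels of 245 to 310.0 and 234 to 403 CPM. C cell markers were at 6881 to 17772 and 20791 to 34805 CPM, with 1 of 4 higher (Calca). Thyrocyte markers other than Tg overlapped, at 1177 to 2679 and 1365 to 3213 CPM. Both tested osteoclast markers were lower (Acp5, Mmp9; sums 22.7 to 47.0 and 1.99 to 6.86 CPM). No muscle marker passed (286 to 117491 and 4100 to 23067 CPM), nor any parathyroid marker (81.8 to 54595 and 7360 to 33390.0 CPM) or airway and thymus marker (0.601 to 38.6 and 0.740 to 1.99 CPM). The part of these differences in the Ctsl value was not tested.

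Tg, the substrate of the pathway, was higher by 1.31 on the log2 scale in aN1aN2aN3 (SE 0.31, edgeR adjusted p = 0.0137). In no other comparison did it pass. Its log2 differences were 0.09 and -0.21 for aJ1aJ2 and aN1aN2 against RW at 15 hours and -0.31 between the antibodies, then -0.14, -0.20 and -0.06 at 5 days, and -0.09 in the first 7-day set. The differences between times were -0.28 and 0.02.

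Around the 9 genes, 6 lists of pathway genes were followed, and outside the second 7-day set 1 gene of them passed in any comparison. This was Rab5a, a GTPase of early endosomes, whose aN1aN2 effect was lower by 0.55 on the log2 scale at 5 days than at 15 hours (SE 0.12, edgeR adjusted p = 0.0129). Of 84 list genes tested at 15 hours edgeR called 0 in each of the 3 comparisons (1, 7 and 7 unadjusted), where DESeq2 called 0, 2 and 2, limma on FPKM 0, 14 and 22, and quality weights 0, 2 and 0. The 14 and 22 by FPKM stand beside 12.3 and 10.8% of all genes in those fits. Of 83 tested at 5 days edgeR called 0 in each (8, 8 and 2 unadjusted, beside 11.8, 10.0 and 4.22% of all genes). DESeq2 called 5, 2 and 0, and limma on FPKM 0, 0 and 0. Quality weights called 19, 13 and 0, beside 18.9, 8.26 and 0.374% of all genes. In the first 7-day set edgeR called 0 of 82 (12 unadjusted, beside 11.6% of all genes). DESeq2, limma on FPKM and quality weights called 0, 0 and 2. Of 85 tested for a difference between times edgeR called 0 under aJ1aJ2 and 1 under aN1aN2. Unadjusted there were 7 and 2, beside 11.2 and 14.8% of all genes. DESeq2 called 3 and 2, and limma on FPKM 2 and 0. Quality weights called 11 and 3, beside 16.6 and 7.55% of all genes.

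In the second 7-day set 11 of 84 list genes passed, beside the 19.6% of all genes given above. Of 29 genes for the lysosomal lumen and membrane, 2 were higher in aN1aN2aN3 and 0 lower, with a list median of 0.03 beside -0.07 for all genes: Ctsf, another cysteine cathepsin gene, by 1.21 (edgeR adjusted p = 0.0034), and Scarb2, the receptor that carries glucocerebrosidase to lysosomes, by 0.45 (adjusted p = 0.0265). Ctsf ranged from 40.3 to 65.4 CPM in aJ1aJ2 and from 84.8 to 154 CPM in aN1aN2aN3, without overlap. Of 15 genes of the proton pump that acidifies lysosomes, 2 were higher and 0 lower, with a median of 0.01: Atp6v0a1 by 0.86 and Atp6v1b2 by 0.48. Of 15 tested genes for uptake and sorting, 0 were higher and 2 lower, with a median of 0.05. They were Asgr1, a subunit of the asialoglycoprotein receptor, with a log2 change of -2.17, and Tfrc, the transferrin receptor, with -0.93.

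Among 7 tested protease inhibitor genes the metalloprotease inhibitors Timp3 and Timp1 passed in opposite directions, at 0.94 and -1.01 (list median -0.52). None of 4 tested transcription factors of lysosomal genes passed (list median -0.06). Of 14 tested genes for hormone synthesis and release, Tg and the thyroid transcription factor gene Pax8 (0.78) were higher and the iodide transporter gene Slc5a5 (-1.91) lower, with a list median of -0.17. These lists were drawn up with earlier results of these data known.

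Within groups the 9 genes followed different partners. Each gene's log2 CPM was centred on its group mean, and Pearson's r was taken over the 50 libraries as a description. The libraries share differences in tissue composition and depth that this does not remove. Among the 36 pairs of members r ran from -0.70 to 0.89 with a median of 0.00, and 9 pairs were above 0.5 and 4 below -0.5. Ctsd and Lamp1 had the highest r, 0.89 (Spearman's rho 0.89, r = 0.88 without the 2 libraries farthest from the median of Lamp1). Their upstream sequences are printed above partly for this r, and a link between matches and r was not tested. Ctsl and Lamp2 had 0.84 (rho 0.88, 0.84 without the 2 libraries farthest from the median of Lamp2), and the Lamp2 window held no CACGTG. Ctsb and Ctsl had 0.66. Ctsk and Ctss, both known from cells other than thyrocytes, had -0.07 with each other. Lrp2 and Ctsk had -0.70 (rho -0.53, -0.56 without the 2 libraries farthest from the median of Lrp2).

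**Figure D4:**
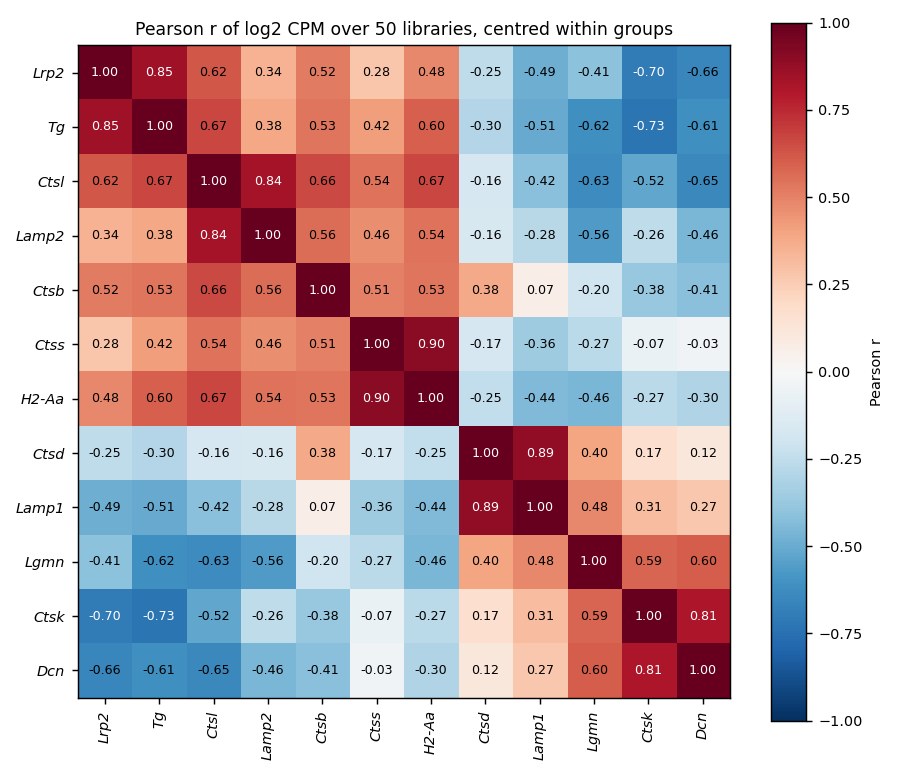
Pearson's r of log2 CPM centred within groups over 50 libraries, for the 9 genes with Tg, Dcn and H2-Aa. Ctsd with Lamp1 (0.89) and Ctsl with Lamp2 (0.84) are the strongest pairs among the 9, and Lrp2 runs with Tg (0.85).

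Genes outside the 9 were compared in the same way. Among 16174 genes compared, the 3 with the highest r with Lrp2 were Shisa7 (0.94), Hap1 (0.93) and Slc22a17 (0.92), which fell to 0.84, 0.77 and 0.74 without the 2 libraries at 5 days with least Tg. Lrp2 had an r of 0.85 with Tg (rho 0.73, 0.69 without the low-Tg libraries, 0.92 without the second 7-day set). Ctss was nearest to the MHC class II genes H2-Eb1 (0.91), H2-Aa (0.90) and H2-Ab1 (0.87), all of antigen-presenting cells. The genes nearest to Ctsk were Dcn (0.81), which encodes the matrix proteoglycan decorin, the collagenase gene Mmp13 (0.80) and S100a6 (0.78). Without the 2 libraries at 5 days with least Tg these were 0.77, 0.66 and 0.77. Of the 5 osteoclast markers, Ocstamp, Dcstamp and Calcr reached at most 2.03 CPM in any library, and Acp5 and Mmp9 reached 55.1 and 63.0 CPM. Beside the 64.3 and 44.7 CPM given above, the summed osteoclast markers were also the highest of their group in replicate 3 of aJ1aJ2 at 5 days (91.5 CPM, with Ctsk at 15.2 CPM) and in replicate 5 of RW in the first 7-day set (42.6 CPM, with Ctsk at 7.83 CPM). In replicate 1 of aN1aN2 at 5 days, with Ctsk at 13.9 CPM, they were at 23.0 CPM, within the range of the others. The part of these cells was not tested.

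**Figure D5:**
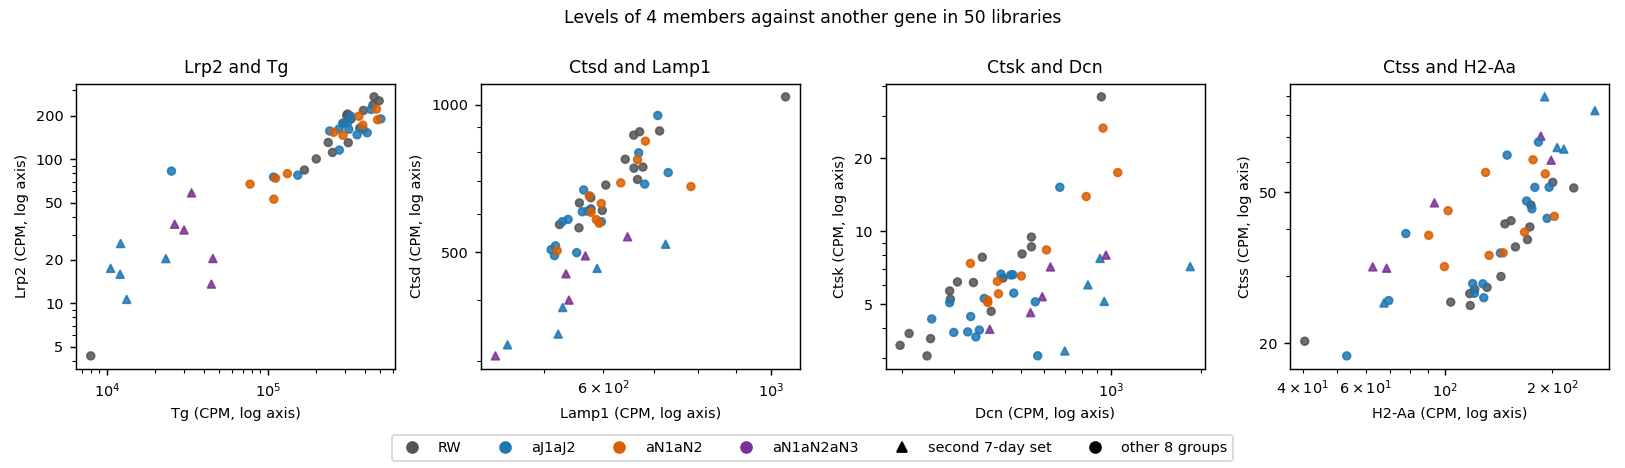
CPM of gene pairs in the 50 libraries on log axes, Lrp2 against Tg, Ctsd against Lamp1, Ctsk against Dcn and Ctss against H2-Aa, with triangles for the second 7-day set. In the first panel the triangles sit at low levels of both Lrp2 and Tg.

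For the remaining members the nearest genes were as follows. Those of Ctsl were Snx2 (0.94), a sorting nexin of endosomes, Sec11a (0.93), a subunit of signal peptidase, and Spg21 (0.93). For Lamp2 they were Asah1 (0.94), which encodes lysosomal acid ceramidase, Tax1bp1 (0.93), an autophagy receptor gene, and Rnf13 (0.92). Ctsb was nearest to Ergic3 (0.84), Atp6v0e (0.82), a proton pump subunit, and Tex264 (0.82). Ctsd was nearest to Lamp1 (0.89), Snx3 (0.81) and Capns1 (0.80), and Lamp1 to Ctsd (0.89), Fbxo6 (0.85) and Rab1b (0.84). Lgmn was nearest to Clu (0.84), Clmp (0.84) and Atp6v0e2 (0.83).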

How the data were processed

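Whole-thyroid RNA was sequenced as single-end reads, per the labels' protocols. The authors deposited read counts per gene, whole numbers without normalization, and FPKM values, which the authors scaled to gene length and library size. GSNAP and limma are named in the submitters' processing notes; the sources used here give neither their roles nor the genome build or the use of strand. The deposited FPKM values fall into 2 blocks with different library scaling, and aN1aN2 at 15 hours is in another block than RW and aJ1aJ2 at 15 hours, so on FPKM group and block cannot be told apart there. All columns matched a library by the ID in its title. Symbols were matched by Ensembl ID, and 233 genes had none. In 100 pairs of replicates the smallest chi-square per degree of freedom was 17.1, so each library was counted once.

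Counts were tested with edgeR 4.0.16 in R 4.3.3 (TMM, filterByExpr with minimum count 10 and minimum total 15, robust quasi-likelihood fit, Benjamini-Hochberg threshold 0.05). The groups of a time point were fitted together, and each 7-day set separately. Differences between times used all 6 groups of 15 hours and 5 days. SE was taken from the F statistic. The fitting script was tested on simulated data with less spread between libraries than these data. That test therefore does not tell how often a real difference would be found here. Alternatives were DESeq2 1.42.0, limma 3.58.1 on log2(FPKM + 0.1) or with library quality weights, RLE scaling, no filter, a replicate block, a muscle covariate, Tg removed, only the groups compared, and leaving out each library. Leaving out 2 libraries together was chosen after seeing the data.

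The members and lists were chosen with earlier results of these data known. Named were all members in each comparison, up to 4 called genes of each list by p, Tg throughout, and the 3 genes with the highest within-group correlation with each member among those with a mean of at least 1 CPM (log2 CPM, prior count 2). The depth of 15.3 to 52.8 M counts gave every member at least 45 counts in each library.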

Additional observations from a re-analysis of the deposited data

Results flagged for a closer look

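In 90 groups of 5 libraries (9 genes in 10 groups), the highest or lowest library was checked for a gap to its neighbour above 0.71 of the group's range. Chance passes this in about 1 of 20 groups, and 7 passed here. In replicate 3 of RW at 5 days, Ctsk was at 35.9 CPM against 6.16 to 8.64 in the other 4, and Lamp1 was at 1045 CPM against 659 to 712. Replicate 3 of aJ1aJ2 at 5 days had Ctsk at 15.2 CPM against 5.29 to 6.67. Replicate 5 of RW in the first 7-day set had Ctsd at 880.5 CPM against 561 to 631, and Ctsk at 7.83 CPM against 3.07 to 3.79. In replicate 2 of aJ1aJ2 in that set Ctss was at 18.5 CPM against 26.3 to 28.7. Lamp1 was at 783 CPM in replicate 1 of aN1aN2 at 5 days against 521 to 596. All 7 values come from 5 libraries, each of which had the least Tg of its group.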

How the results depend on the processing

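Ctsl in the second 7-day set kept its direction and its call under every alternative run. No called member value lost its call or changed sign, 24 uncalled values became called, and 157 of 2315 values uncalled in both fits had the other sign. The number of members called differed from edgeR's in these cases, and the cause was not tested. With limma on FPKM it was 1 for aN1aN2 against RW at 15 hours (Ctsb, -0.49) and 1 for aN1aN2 against aJ1aJ2 (Ctsb, -0.57), against 0, where the median of all genes was -0.18 and -0.20. With DESeq2 it was 1 for aN1aN2 against aJ1aJ2 at 15 hours (Ctsk, 1.43) and 1 for each antibody against RW at 5 days (Ctsd). With library quality weights it was 4 and 3 for aJ1aJ2 and aN1aN2 against RW at 5 days, 4 for the aJ1aJ2 difference between times (Ctsb, Ctsd, Ctss, Lamp1), and 4 against 1 in the second 7-day set (Ctsl, Ctss, Lgmn, Lamp2), where these weights called 44.7% of all genes. With the muscle covariate it was 1 for each antibody at 5 days (Ctsd, -0.52 and -0.53, adjusted p = 0.0360 and 0.0454) and 1 for the aN1aN2 difference between times (Ctsk, -1.41). Without aJ1aJ2 replicates 4 and 5 it was 3 in the second 7-day set (Ctsl, Lgmn, Lamp2), beside 35.5% of all genes. Leaving out any single library left every count of members as it was, 0, or 1 in the second 7-day set.

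With the replicate block 0 members were called, except 1 in the second 7-day set (Ctsl, 1.30, adjusted p = 0.0329). Same-numbered libraries deviated together by more than 0.1 in 8 of 15 pairs at 15 hours, 9 of 15 at 5 days, 1 of 5 in the first 7-day set and 0 of 5 in the second. Since not every pair did, the numbers were not taken to pair the libraries. Counting error is small for the upper-tier genes, and depth limits Ctsk most, at a lowest count of 45.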
